A study of Mus musculus with 12 samples.

Results

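The sites described here are DNase I hypersensitive sites (DHSs), short stretches of accessible chromatin, that carried a called peak in every library of freshly isolated progenitors and in every library of progenitors cultured on the Notch ligand Delta1, but in none of the libraries cultured without ligand. Peaks of all 12 libraries on chromosomes 1 to 19 and X were merged where they overlapped by at least 1 bp, which gave 170207 consensus DHSs. A peak was present in all 9 libraries of the LSK, DN1, DN2a and DN2b groups at 24839 of them. Of these, 5402 had no peak in any of the 3 IgG libraries and are the members. The members were selected on the presence and absence of called peaks, so their absence from IgG and their presence in the other groups are the rule itself and not a result. The absence of a called peak does not show that chromatin was closed.

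Notch receptors are cleaved after binding a ligand on a neighbouring surface, and the freed intracellular domain binds the DNA-binding protein RBPJ to activate transcription. In the thymus, signalling through NOTCH1 directs multipotent progenitors to the T lineage, in steps named for the double-negative (DN) cells, which lack CD4 and CD8. TCF1, the product of Tcf7, and BCL11B are transcription factors of specification and commitment along this path, and RUNX, ETS, E and GATA proteins are among the factors that occupy accessible sites in progenitors.

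All cells came from C57BL/6J mice. LSK cells, which are lineage-negative, SCA1+ and KIT+ and contain the stem and multipotent progenitor cells, were taken fresh from marrow (3 libraries). LSK cells were also grown on immobilized Delta1 with 4GF, a mixture of stem cell factor, FLT3 ligand, IL-6 and IL-11, and DN1 cells (2 libraries) were sorted from these cultures without IL-7, whereas DN2a and DN2b cells (2 libraries each) were sorted from cultures that also received IL-7. The IgG group (3 libraries) was LSK cells cultured on human IgG without Notch ligand. Stage and IL-7 therefore cannot be told apart between DN1 and the DN2 groups, and Delta1 culture differs from LSK also in the time in culture and in the growth factors. The methods of the study describe a sort after culture for the DN groups and IL-7 for Delta1 cultures, but neither for the IgG culture. Ligand, sorting and cell composition therefore cannot be told apart between the DN groups and IgG, nor can IL-7 for the DN2 groups. Replicates derived from independent LSK isolates, but a DN1, a DN2a and a DN2b library may share 1 isolate, which the labels do not record, so p-values measure the spread between these libraries only.

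The lists differed in length. LSK libraries held 53869 to 62377 peaks, Delta1-cultured libraries 57729 to 111582 and the 3 IgG libraries at most 37511. Read depth is unknown, and the part of depth in the number of called peaks was not tested. Promoter peaks at defining genes followed the labels in part. Kit and Cd44, which encode surface markers used for the sorts, had a promoter peak in all 12 libraries. Il2ra, which encodes CD25, had one in 4 of 4 DN2a and DN2b libraries and in 0 of the others, whereas Ly6a, which encodes SCA1, had none in any library. Cd34 had one in 8 of 9 LSK and Delta1-cultured libraries and in 0 IgG libraries. Flt3, another gene chosen as a marker of LSK cells, had one in all 9 LSK and Delta1-cultured libraries and in 2 of the 3 IgG libraries. Thy1 had one in the DN2b libraries only. Of 6 myeloid markers, Mpo, Elane and Csf1r each had a promoter peak in 1 IgG library only, Fcgr3 in none, Itgam in 11 of 12 libraries and Cebpa in all 12. The part of myeloid cells in the results was not tested. The promoters of the B cell genes Pax5 and Cd79a held no peak in any library.

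Sequences of 10 members are given on the plus strand of GRCm38 (mm10). The first 6 are the highest ranking promoter members and other members that lay outside annotated exons and were at most 300 bp wide. The last 4, near genes of the T lineage, were chosen after their values were seen. Capitals mark matches, on either strand, to 11 motifs, and a match is a description of the letters and not of a bound factor. The motifs were TGNGGT for RUNX, CCGGAA for ETS, GAGGAA for PU.1, GTGGGAA for RBPJ, CAGCTG for an E-box, AGATAA for GATA factors, CTTTGAT for TCF1, TTGCNNAA for C/EBP, TGANTCA for AP-1, CAACTG for MYB and CCACNAGGG for CTCF.
Rcbtb2, chr14:73123857-73124046: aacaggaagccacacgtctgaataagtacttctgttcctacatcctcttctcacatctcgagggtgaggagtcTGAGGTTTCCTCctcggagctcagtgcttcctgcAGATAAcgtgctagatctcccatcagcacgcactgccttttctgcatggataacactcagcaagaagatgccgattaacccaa
Olfr646, chr7:104103997-104104186: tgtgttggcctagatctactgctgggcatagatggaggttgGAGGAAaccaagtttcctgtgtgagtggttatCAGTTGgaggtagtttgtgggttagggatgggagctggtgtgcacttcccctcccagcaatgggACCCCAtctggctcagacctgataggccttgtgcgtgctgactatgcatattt
Mycn, chr12:12942417-12942606: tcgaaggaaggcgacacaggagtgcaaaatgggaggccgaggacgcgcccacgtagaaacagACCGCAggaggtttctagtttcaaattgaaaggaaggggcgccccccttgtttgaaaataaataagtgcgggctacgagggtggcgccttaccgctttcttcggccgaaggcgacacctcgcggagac
Rfx2, chr17:56819737-56819946: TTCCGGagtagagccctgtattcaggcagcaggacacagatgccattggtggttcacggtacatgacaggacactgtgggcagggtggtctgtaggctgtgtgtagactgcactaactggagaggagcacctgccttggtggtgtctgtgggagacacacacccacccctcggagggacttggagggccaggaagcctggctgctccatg
4930412O13Rik, chr2:9593997-9594206: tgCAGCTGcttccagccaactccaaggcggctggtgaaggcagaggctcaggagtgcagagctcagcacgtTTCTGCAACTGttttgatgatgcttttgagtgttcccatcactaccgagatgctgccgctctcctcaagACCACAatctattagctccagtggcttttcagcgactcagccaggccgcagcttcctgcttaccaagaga
Gatad1, chr5:3670197-3670426: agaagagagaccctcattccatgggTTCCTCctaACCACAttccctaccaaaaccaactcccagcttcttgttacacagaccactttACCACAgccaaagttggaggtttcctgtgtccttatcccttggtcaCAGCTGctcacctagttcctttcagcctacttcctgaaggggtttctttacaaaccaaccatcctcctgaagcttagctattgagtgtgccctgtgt
Tcf7, chr11:52318497-52318726: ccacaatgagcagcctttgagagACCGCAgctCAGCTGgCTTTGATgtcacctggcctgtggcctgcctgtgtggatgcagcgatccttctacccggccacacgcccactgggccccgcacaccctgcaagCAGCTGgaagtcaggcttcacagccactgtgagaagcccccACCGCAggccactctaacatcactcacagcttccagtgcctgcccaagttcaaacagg
Gfi1, chr5:107759217-107759426: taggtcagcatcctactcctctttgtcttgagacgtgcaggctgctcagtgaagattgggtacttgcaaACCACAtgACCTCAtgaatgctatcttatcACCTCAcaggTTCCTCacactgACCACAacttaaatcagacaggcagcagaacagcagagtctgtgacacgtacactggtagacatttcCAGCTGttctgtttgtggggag
Il2ra, chr2:11653437-11653626: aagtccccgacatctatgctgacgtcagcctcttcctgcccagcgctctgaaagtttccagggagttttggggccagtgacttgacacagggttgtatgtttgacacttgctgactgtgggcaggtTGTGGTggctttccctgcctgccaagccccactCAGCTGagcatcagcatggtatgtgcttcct
Bcl11b, chr12:108004057-108004266: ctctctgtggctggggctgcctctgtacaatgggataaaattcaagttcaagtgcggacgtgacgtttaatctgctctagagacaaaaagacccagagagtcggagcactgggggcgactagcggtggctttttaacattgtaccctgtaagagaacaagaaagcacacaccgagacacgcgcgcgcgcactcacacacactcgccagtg
The site upstream of Tcf7 held 2 RUNX, 2 E-box and 1 TCF1 matches, and the site near Gfi1, which encodes a transcriptional repressor, held 4 RUNX matches. The site at the Bcl11b promoter held none of the 11 motifs.

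Members ranked mostly low among the 24839 DHSs present in all 9 libraries, and in the middle among all peaks of a library. Each library's peaks were ranked by the score in the deposited list, and a DHS was given the percentile of its highest peak among all peaks of that library. Over the 9 libraries, the median percentile of a member ranged from 1.36 to 99.5 with a median of 59.0, and 213 members (3.94%) lay above 90. In 135 members every library was above 80. When the 24839 DHSs were ordered by their mean percentile and divided into 10 equal bins, 54.9% of the lowest bin (1364 of 2484, 95% Wilson interval 52.9 to 56.9) lacked a peak in all IgG libraries. The share fell in each following bin, to 0.403% in the highest (10 of 2484, interval 0.219 to 0.739). In a division into 5 equal bins, the lowest held 2514 of the 5402 members and the highest 85.

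**Figure D1:**
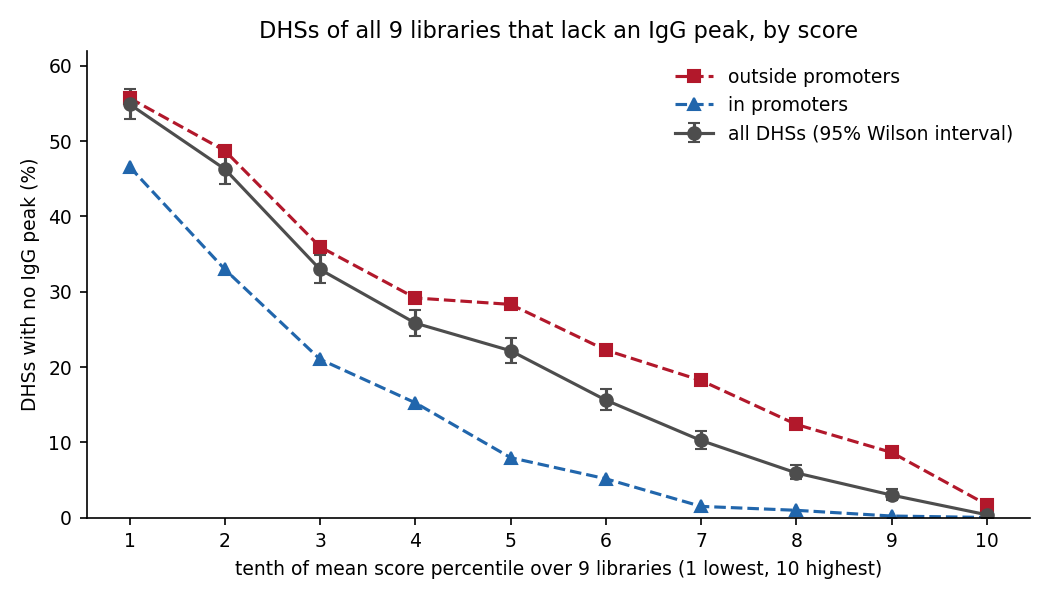
Share of the DHSs with a peak in all 9 LSK, DN1, DN2a and DN2b libraries that lacked a peak in all 3 IgG libraries (vertical axis, percent), by bin of the mean score percentile (horizontal axis), for all DHSs (circles, with 95% Wilson intervals), promoter DHSs (triangles) and other DHSs (squares). The share of all such DHSs fell from 54.9% to 0.403%.

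The same fall was seen for promoter DHSs, whose share without an IgG peak went from 46.6% to 0.0509% (1 of 1966), and for other DHSs, where it went from 55.7% to 1.74%. The nearest IgG peak lay within 1 kb of 609 members (11.3%) and within 150 bp of 107 (1.98%), and the median gap was 11.5 kb. Over all consensus DHSs without an IgG peak these values were 19.0%, 3.67% and 9.41 kb, so members lay farther from IgG peaks than such DHSs did. The 573 promoter members lay closer, with 43.3% within 1 kb, 9.60% within 150 bp and a median gap of 2.69 kb.

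Members were less often at promoters than other DHSs of the same 9 libraries. A promoter was taken as the 1 kb on either side of the start of a protein-coding gene. Of the members, 573 (10.6%, Wilson interval 9.81 to 11.5) were at a promoter, against 23.3% (22.3 to 24.4) of the 6369 DHSs present in all 9 libraries and in 1 or 2 IgG libraries, 58.0% (57.1 to 58.8) of the 13068 DHSs present in all 12 libraries and 16.5% of all consensus DHSs. The median distance to a gene start was 26.7 kb for members, 13.3 kb for the DHSs with 1 or 2 IgG libraries, 0.360 kb for those in all 12 and 21.3 kb over all consensus DHSs. In their place within genes, members were near all consensus DHSs, with 50.02% and 49.5% in introns, 39.3% and 38.03% between genes, and 4.85% and 5.41% in untranslated regions. The nearest start was more than 50 kb away at 1712 members (31.7%) and at 30.9% of all consensus DHSs. With the upper 50% of each list, the promoter share was 24.0% of members, 22.7% of all consensus DHSs and 69.7% of those in all 12 libraries, so the difference from all consensus DHSs did not hold there.

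The low promoter share of members was not a feature of low-ranking sites alone. Within the lowest of the 5 bins of mean percentile, 9.15% of 2514 members and 15.3% of the DHSs with an IgG peak were promoters, and in bin 4 of 5 the shares were 7.94% of 403 members and 55.97%. Members held fewer CpG dinucleotides than the DHSs with an IgG peak, but not fewer than all consensus DHSs. The median ratio of observed to expected CpG in a 150 bp window was 0.260 in members, 0.343 in DHSs with 1 or 2 IgG libraries, 0.720 in those in all 12 and 0.242 over all consensus DHSs. The median GC content was 51.3%, 53.3%, 60% and 49.3% in the same order. Outside promoters it was 50.7% in members, 53.3% in DHSs of all 12 libraries and 48.7% over all. The CpG ratio differed less there, at 0.238 in members, 0.276 with 1 or 2 IgG libraries, 0.357 in all 12 and 0.203 over all.

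Few whole promoters lost their peaks. Among 21755 protein-coding genes, 9341 had a promoter peak in all 9 libraries and 351 of these (3.76%) had none in any IgG library, whereas 7883 had one in all 12. The 573 promoter members belonged to 555 genes, and 237 of the members lay at a promoter that held another peak in at least 1 IgG library. The median CpG ratio around the start was 0.50 for the 351 genes and 0.653 for promoters with a peak in all 12 libraries. The 351 included the stem and progenitor genes Mycn and Cd93, Itga2b, which encodes the platelet integrin CD41, and Bcl11b, as well as the lymphocyte genes Rgs1, Cd96, Tespa1, Grap2 and Gimap5, all chosen after the list was seen. Genes such as Lrrc23, Spo11, Cfap45 and Cpa3 were also on the list, and its genes were not counted by lineage.

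The promoter members of highest rank were at Ctla2a, Rcsd1, Rcbtb2, Olfr646, Sla2, Hnrnpf, Mycn, Rsbn1l and Rgs1. At Ctla2a, which encodes a protease inhibitor, the member chr13:60936597-60936766 had percentiles of 93.3, 96.5 and 99.4 in LSK, 95.1 and 92.9 in DN1, 98.8 and 96.8 in DN2a, and 96.5 and 97.7 in DN2b. The groups overlapped. At Rcsd1, which encodes a regulator of actin capping, chr1:165709717-165709906 had 71.3, 44.6 and 59.8 in LSK, 96.8 and 96.2 in DN1, 96.8 and 94.2 in DN2a, and 97.2 and 98.6 in DN2b. Every Delta1-cultured library was above every LSK library there. Mycn, a MYC family transcription factor of stem and progenitor cells, had 2 promoter members, with the nearest IgG peak 132 kb from the first and 133 kb from the second. The one 8 bp upstream of the start (chr12:12941837-12942006) had 79.6, 85.7 and 85.2 in LSK, 94.8 and 95 in DN1, 90.8 and 89.1 in DN2a, and 94.8 and 94.3 in DN2b, again with all Delta1-cultured libraries above LSK. The second, 598 bp upstream, ranged from 84.1 to 90.6 in LSK and from 81.0 to 94.3 with Delta1, and these ranges overlapped.

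Of the members outside promoters, the highest lay in the T cell receptor beta locus. Member chr6:41554437-41554906, between the constant gene Trbc2 and the variable gene Trbv31 and 32.9 kb downstream of the start of Prss2, had percentiles of 80.3, 70.0 and 59.8 in LSK, 99.3 and 99.8 in DN1, 99.5 and 99.5 in DN2a, and 99.9 and 99.9 in DN2b. Every Delta1-cultured library was above every LSK library. An intronic member of Rfx2, which encodes a DNA-binding factor of the RFX family, had 81.0, 88.4 and 89.3 in LSK and 98.4 to 99.2 in the 6 Delta1-cultured libraries. A member 518 kb downstream of the start of Maf, which encodes a bZIP transcription factor, had 81.0, 82.0 and 86.3 in LSK and 97.0 to 99.1 with Delta1. Member chr8:106643177-106643366, 39.8 kb upstream of Tango6, had 63.5, 51.4 and 21.3 in LSK and 97.2 to 99.3 with Delta1. A member 4.71 kb upstream of Prkab1, a subunit of AMP-activated kinase, was high throughout, at 97.6 to 99.5 in LSK and 97.9 to 99.5 with Delta1.

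**Figure D2:**
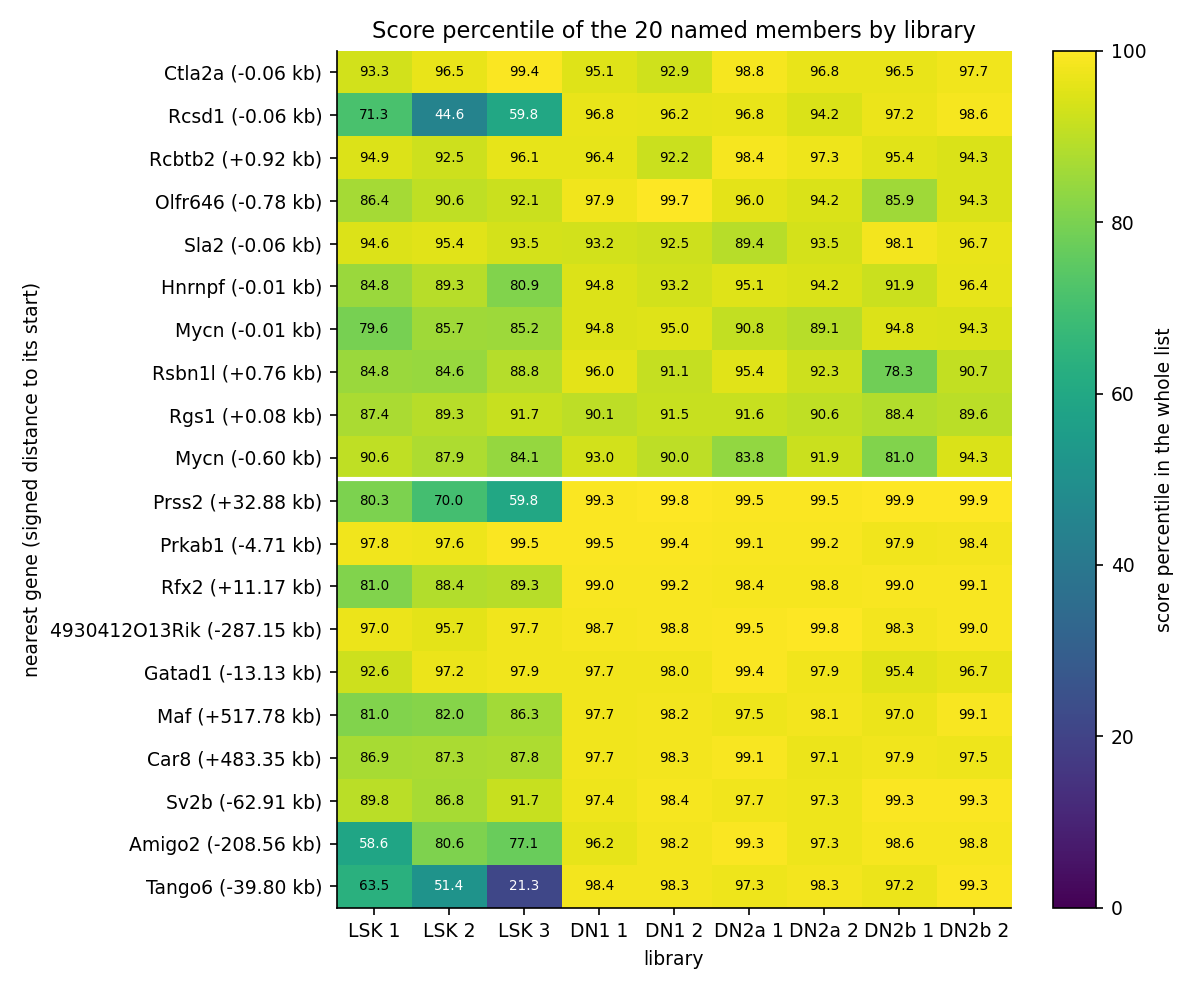
Whole-list score percentile (number and colour, 0 to 100) in each of the 9 libraries (columns) of the 10 promoter members (above the white line) and 10 other members (below it) of highest median percentile, each named by the nearest gene with the signed distance to its start in kb. The member nearest Prss2, at the T cell receptor beta locus, was at 99.3 or above in all Delta1-cultured libraries and at 80.3 or below in LSK.

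The 20 members of highest median percentile, 10 at promoters and 10 elsewhere, were chosen on 9 libraries of which 6 were Delta1-cultured, a choice that favours members high with Delta1. Their levels are therefore a description, with no test. All Delta1-cultured libraries were above all LSK libraries at the members near Rcsd1, Hnrnpf, Mycn (8 bp upstream), Prss2, Rfx2, 4930412O13Rik, Maf, Car8, Sv2b, Amigo2 and Tango6, where the mean percentile was higher with Delta1 by 2.24 to 52.7 points.

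Ranks within the common set were then compared across all 24839 DHSs present in the 9 libraries, since these do not depend on how many further peaks a list holds. Ranks were turned into normal scores and fitted with limma, and differences are given in normal score units (SDs of a standard normal distribution). Higher ranks with Delta1 than in LSK were called for 1276 members (23.6%; 1601 at an unadjusted p under 0.05), and lower ranks for 726 (13.4%; 1029 unadjusted). Over all DHSs tested, 13.3% were called higher and 12.6% lower at the same adjusted p of 0.05. The median difference was 0.06 in members and -0.05 in the other DHSs. No direction was called for 3400 members (62.9%). In bulk libraries, an open site in fewer cells cannot be told apart from lower accessibility in each cell. With lists cut to 1 length, 486 of 1491 members (32.6%) were higher and 150 (10.1%) lower, against 11.7% and 10.2% of the DHSs then tested, and with percentiles of the whole lists in place of common-set ranks 1273 members (23.6%) were higher and 166 (3.07%) lower, against 12.5% and 2.48% of all DHSs.

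The share of higher calls differed between bins of rank. In the lowest of the 5 bins of mean percentile 11.8% of members were called higher, against 8.60% of DHSs with an IgG peak, and in bin 4 the shares were 40.7% and 11.1%. Lower calls were made for 14.8% of members and 14.6% of DHSs with an IgG peak in the lowest bin, for 7.69% and 10.6% in bin 4 and for 9.41% and 5.86% in the highest. Higher calls in the highest bin, which held 85 members, were made for 30.6% of members and 6.53% of the others. At promoters 123 of 573 members (21.5%) were called higher and 65 (11.3%) lower, and elsewhere 1153 of 4829 (23.9%) were higher and 661 (13.7%) lower. Of all promoter DHSs of the 9 libraries 8.04% were called higher and 8.36% lower, and of all others 16.7% and 15.3%.

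**Figure D3:**
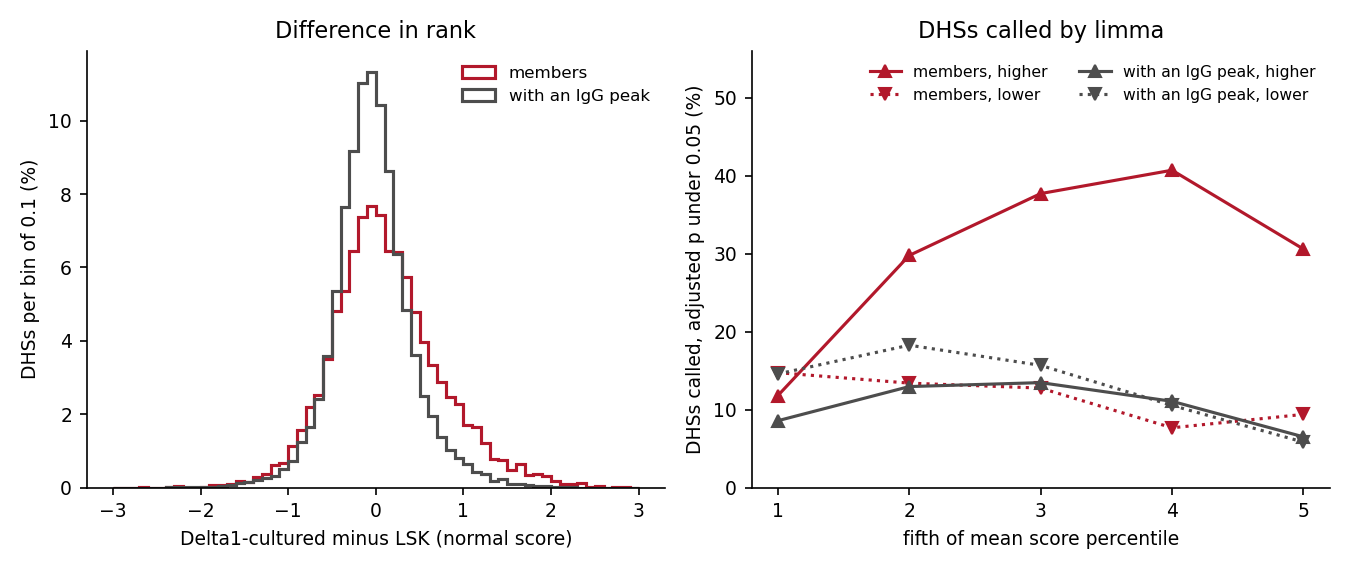
Left, share of DHSs (vertical axis, percent) by the Delta1-cultured minus LSK difference in normal score (horizontal axis, bins of 0.1), for the 5402 members and the DHSs of the same 9 libraries with an IgG peak. Right, share called higher (solid) or lower (dotted) with Delta1 by limma at an adjusted p under 0.05 (vertical axis, percent), by bin of mean score percentile (1 lowest, 5 highest), with 40.7% of members and 11.1% of the others called higher in bin 4.

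The members with the lowest adjusted p among those higher with Delta1 lay near Slc16a5, Tcf7, Etnk1, 2810459M11Rik and Smc5. At Slc16a5, which encodes a monocarboxylate transporter family protein, the member 10.3 kb upstream had percentiles of 18.2, 22.4 and 24.1 in LSK, 94.3 and 88.2 in DN1, 98.6 and 95.8 in DN2a, and 97.7 and 99.0 in DN2b. Its normal score differed by 2.90 ± 0.16 (SE, limma adjusted p = 1e-08). The member 227 kb from the start of Etnk1, an ethanolamine kinase gene, had 15.3, 16.2 and 2.62 in LSK and 87.7 to 91.7 in the Delta1-cultured libraries (2.48 ± 0.17, limma adjusted p = 9.07e-08). Each of these 5 members kept a peak in 6 of the 9 libraries when the lists were cut to 1 length.

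Those lower with Delta1 lay near Cfap300, Lef1, Zfp608, Gorasp2 and Shank3. At the Cfap300 promoter, chr9:8042737-8042966 had 89.8, 90.6 and 89.3 in LSK, 45.4 and 45.2 in DN1, 23.1 and 25.3 in DN2a, and 20.4 and 35.3 in DN2b (difference -2.34 ± 0.17, limma adjusted p = 1.46e-07). Lef1 encodes a transcription factor of the same protein family as TCF1. The member 90.6 kb upstream of it (chr3:131019697-131020006) had 77.3, 87.9 and 84.7 in LSK, 5.49 and 11.9 in DN1, 9.65 and 16.1 in DN2a, and 23.0 and 61.3 in DN2b (difference -2.20 ± 0.17, limma adjusted p = 1.85e-07). In an intron upstream of Zfp608, a zinc finger gene, the percentiles were 95.6, 99.3 and 99.5 in LSK, 93.8 and 86.9 in DN1, 63.6 and 44.5 in DN2a, and 4.83 and 39.9 in DN2b. This member stepped down from stage to stage, and DN2b was below DN1 by 2.59 (limma adjusted p = 3.39e-05). With the lists cut to 1 length, the members near Cfap300, Lef1 and Gorasp2 kept a peak in 3 of the 9 libraries each, the one near Shank3 in 6 and the one near Zfp608 in 7.

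Between LSK and DN1, the first stage in culture and the one without IL-7, 804 members (14.9%) were called higher in DN1 and 466 (8.63%) lower, against 8.58% and 6.78% of all DHSs tested. Without DN1 replicate 1 these counts were 493 (9.13%, against 4.54% of all DHSs) and 234 (4.33% against 3.35%), and without DN1 replicate 2 they were 350 (6.48% against 3.40%) and 201 (3.72% against 2.28%). With whole-list percentiles 57 members (1.06%) were lower, against 0.733% of all DHSs. With percentiles not turned into normal scores 344 members (6.37%) were lower, against 6.40% of all DHSs, so the difference in lower calls did not hold there. At promoters the balance was reversed, with 53 of 573 members (9.25%) higher in DN1 and 61 (10.6%) lower. Of all promoter DHSs of the 9 libraries 3.66% were higher and 4.95% lower. Of the 4829 other members 751 (15.6%) were higher and 405 (8.39%) lower, against 11.7% and 7.93% of all other DHSs. This comparison shares its LSK and DN1 libraries with the one above. Srpk2, which encodes a splicing factor kinase, had an intronic member at 33.1, 31.6 and 46.5 in LSK and 96.6 and 94.7 in DN1 (2.27 ± 0.19, limma adjusted p = 5.34e-06). The member 173 kb from the start of Nrp2, a semaphorin co-receptor gene, had 10.2, 28.6 and 6.52 in LSK and 93.2 and 90.4 in DN1 (2.47 ± 0.23, limma adjusted p = 9.97e-06). Near Swap70, which encodes a signalling protein of lymphoid and mast cells, the member was lower in DN1, with 70.1, 65.0 and 77.9 in LSK, 27.2 and 4.95 in DN1 and 63.1 and 78.5 in DN2b (DN1 minus LSK -2.02 ± 0.20, limma adjusted p = 1.59e-05).

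Between DN1 and DN2b, 476 members (8.81%) were called higher in DN2b and 309 (5.72%) lower, against 4.01% and 5.52% of all DHSs tested. The intronic member near Zfyve21 had 31.5 and 38.3 in DN1, 80.01 and 82.1 in DN2a and 96.5 and 97.7 in DN2b, after 52.9, 66.4 and 72.7 in LSK (DN2b minus DN1, 2.95 ± 0.26, limma adjusted p = 9.5e-06). The promoter member of 1500009L16Rik had 52.2 and 49.5 in DN1 and 92.7 and 97.7 in DN2b (2.32 ± 0.24, limma adjusted p = 1.96e-05). A member 32.6 kb upstream of Klf5, a Krüppel-like factor gene, went the other way, with 91.0, 96.0 and 94.7 in LSK, 97.6 and 97.5 in DN1, 74.5 and 75.9 in DN2a and 17.8 and 54.7 in DN2b (-2.92 ± 0.23, limma adjusted p = 3.72e-06). Promoter members were called higher in DN2b 63 times and lower 12 times of 573, and other members 413 and 297 times of 4829. These are 11% and 2.09% of promoter members, against 2.66% and 0.955% of all promoter DHSs, and 8.55% and 6.15% of other members, against 4.86% and 8.41% of all other DHSs. The counts of this comparison rested on each of its 4 libraries. Higher calls numbered 226 without DN1 replicate 1 (4.18%, against 1.75% of all DHSs), 286 without DN1 replicate 2 (5.29% against 1.89%), 213 without DN2b replicate 1 (3.94% against 1.52%) and 227 without DN2b replicate 2 (4.2% against 1.66%). Lower calls numbered 187 (3.46% against 3.35%), 152 (2.81% against 2.85%), 157 (2.91% against 3.11%) and 178 (3.30% against 3.12%) in the same order. With whole-list percentiles, 92 members were higher (1.70% against 0.548%) and 97 lower (1.80% against 1.91%).

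Of 30 Notch pathway genes, 12 were nearest to a total of 17 members, out of 69 DHSs near these genes that were present in all 9 libraries (24.6%, against 21.7% over all genes). With Delta1, limma called 6 of the 17 higher and 2 lower (23.6% and 13.4% over all members), and the median difference was 0.24 against 0.06 over all members. The member 45.2 kb upstream of Rbpj, the gene of the DNA-binding partner of the Notch intracellular domain, had 21.2, 39.7 and 39.6 in LSK, 90.1 and 77.8 in DN1, 89.0 and 89.6 in DN2a, and 84.1 and 89.6 in DN2b (1.68 ± 0.17, limma adjusted p = 2.34e-06). It was higher in every Delta1-cultured library, with no difference called between DN1 and DN2b (0.20, adjusted p = 0.726). Near Fbxw7, whose product marks the Notch intracellular domain for degradation, a member rose by 0.72 ± 0.18 (limma adjusted p = 0.00761). The members near the Notch target genes Hes1, Nrarp and Il2ra did not pass, with differences of 0.33, -0.00 and 0.10 and adjusted p-values of 0.191, 0.993 and 0.687. Hes1 was nearest to 2 members, and the values given for it are those of the member with the higher rank. The other Hes1 member was not called in either direction.

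T lineage genes had 21 members of 58 DHSs (36.2%), near 13 of the 30 listed genes. By limma, 8 of the 21 were higher with Delta1 and 3 lower, where 23.6% and 13.4% of all members were. In DN1 against LSK, 6 were higher and 4 lower, where 14.9% and 8.63% of all members were, with a median difference of -0.32 against 0.02 over all members. In DN2b against DN1, 8 were higher and 1 lower, where 8.81% and 5.72% of all members were, with a median of 0.70 against 0.11. Both DHSs nearest Tcf7 that were present in all 9 libraries were members. The one 31.5 kb upstream (chr11:52314297-52314646) had 33.1, 10.5 and 24.1 in LSK, 86.7 and 88.7 in DN1, 95.7 and 96.8 in DN2a, and 97.9 and 99.3 in DN2b. It was higher with Delta1 by 2.73 ± 0.18 (limma adjusted p = 7.89e-08) and higher in DN2b than in DN1 by 1.44 ± 0.25 (limma adjusted p = 0.0013). The one 35.6 kb upstream, whose sequence is given above, had 77.3, 74.2 and 76.3 in LSK, 94.8 and 89.96 in DN1, 97.3 and 95.2 in DN2a, and 97.2 and 98.0 in DN2b (1.13 ± 0.15 with Delta1, limma adjusted p = 4.44e-05).

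All 3 DHSs nearest Bcl11b that were present in all 9 libraries were members, 1 of them at the promoter. The other 2 were not called with Delta1 (0.33, adjusted p = 0.124, and -0.33, adjusted p = 0.326), and 1 of them was higher in DN2b than in DN1 (0.83, limma adjusted p = 0.0191). The promoter member, 560 bp upstream of the start, had 27.3, 6.12 and 21.3 in LSK, 69.7 and 61.8 in DN1, 96.5 and 95.2 in DN2a, and 97.4 and 96.4 in DN2b. The DN1 libraries lay between LSK and the DN2 libraries, without overlap. The difference was 2.36 ± 0.18 with Delta1 (limma adjusted p = 1.85e-07) and 1.98 ± 0.25 between DN2b and DN1 (limma adjusted p = 8.75e-05). Members near Gfi1 (-0.35, adjusted p = 0.149) and Runx3 (0.43, adjusted p = 0.0729) did not pass for Delta1, and the Runx3 member lay 0.05 kb from an IgG peak. The intronic member of Il2ra stayed between 81.3 and 93.7 in all 9 libraries, although the Il2ra promoter had peaks in DN2a and DN2b libraries only.

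Stem and progenitor genes had 27 members of 91 DHSs (29.7%), near 16 of 30 genes. With Delta1, 13 were higher and 1 lower by limma, where 23.6% and 13.4% of all members were, and the median difference was 0.33 against 0.06. Sox4 encodes a transcription factor of lymphoid progenitors, and a member 127 kb from its start, in an intron of the annotation, had 60.4, 57.2 and 71.6 in LSK and 89.6 to 93.4 with Delta1 (1.12 ± 0.15, limma adjusted p = 4.6e-05). Near Ikzf2, which encodes the Ikaros family factor Helios, a member was higher in DN1 than in LSK by 0.69 (limma adjusted p = 0.0426) and lower in DN2b than in DN1 (-0.93, limma adjusted p = 0.0199). Angpt1, which encodes angiopoietin, was nearest to 5 members of 9 DHSs, whereas Runx1 was nearest to 2 of 15.

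Lymphoid priming and B lineage genes had 19 members of 55 DHSs (34.5%), with 7 higher and 2 lower with Delta1 by limma, where 23.6% and 13.4% of all members were, and a median of -0.03. Dntt, which encodes terminal transferase, was nearest to 4 members of 5 DHSs, and the highest of them did not change by limma (-0.03, adjusted p = 0.917). A member 4.99 kb upstream of Lax1, an adaptor gene of lymphocytes, had 88.9, 90.6 and 90.5 in LSK, 93.8 and 91.5 in DN1, 83.2 and 81.5 in DN2a, and 67.9 and 82.9 in DN2b (DN2b minus DN1 -0.91, limma adjusted p = 0.00901). Members were fewest near myeloid genes, with 7 of 44 DHSs (15.9%) at 4 of 29 genes. By limma, 4 of the 7 were higher with Delta1 and 0 lower (0 also at an unadjusted p under 0.05), where 23.6% and 13.4% of all members were, among them a member 42.0 kb from the start of Id2, whose product inhibits E proteins, at 21.2, 19.3 and 10.9 in LSK, 77.8 and 78.6 in DN1, and 92.4 to 96.9 in the DN2 libraries. An IgG peak lay 0.15 kb from that member.

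Mast, erythroid and megakaryocyte genes had 13 members of 24 DHSs (54.2%, against 21.7% over all genes), near 9 of 20 genes. By limma, 2 of the 13 were higher with Delta1 and 3 lower, where 23.6% and 13.4% of all members were, and the median difference was -0.02. Promoter members were found at Cpa3, a mast cell protease gene, at Epor, the erythropoietin receptor gene, and at Itga2b. The Itga2b member had 87.9, 87.3 and 93.5 in LSK, 96.2 and 91.5 in DN1, 88.5 and 84.7 in DN2a, and 40.5 and 68.5 in DN2b. It was lower in DN2b than in DN1 (-1.81 ± 0.23, limma adjusted p = 7.35e-05). The promoters of Gata1, which encodes a factor of these lineages, and of the mast cell receptor genes Ms4a2 and Fcer1a held no peak in any library. The counts of DHSs in these lists are small, and the lists were compared with all genes by description only.

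Members were spread over many genes. Of the gene symbols nearest to a member, 3056 had 1 member and 719 had 2, and 2086 members (38.6%) lay within 50 kb of another. The most were near Smad7, an inhibitor of TGF-beta signalling, with 8 of its 12 DHSs present in the 9 libraries, followed by Dad1 and Rplp1 with 7 of 13 each and by Haao (6 of 13) and Cblb (6 of 9), a ubiquitin ligase gene that restrains T cell activation. Around Smad7, limma called 2 of the 8 members higher and 2 lower with Delta1, where 13.3% and 12.6% of all DHSs were called.

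Most members assigned to Dad1 lay among genes of the T cell receptor alpha and delta locus. Member chr14:54111177-54111366 had 41.2, 58.9 and 48.7 in LSK, 83.1 and 85.8 in DN1, 92.0 and 92.7 in DN2a, and 92.7 and 96.1 in DN2b (1.49 ± 0.17 with Delta1, limma adjusted p = 9.14e-06). Close to it, chr14:54108777-54108986 had 73.4, 67.6 and 82.3 in LSK, 43.6 and 30.5 in DN1, 68.5 and 75 in DN2a, and 82.3 and 87.1 in DN2b. It was lower with Delta1 (-0.52, limma adjusted p = 0.0292), lower in DN1 than in LSK (-1.59, limma adjusted p = 0.000146) and higher in DN2b than in DN1 (1.79, limma adjusted p = 0.000122), so these neighbours differed in DN1. The intronic member 14.9 kb from the Dad1 start was lower with Delta1 (-0.74, limma adjusted p = 0.00141). The member between Trac, the constant gene of the alpha chain, and Dad1 was high throughout, at 82.4, 95.1 and 91.3 in LSK and 93.1 to 97.9 with Delta1 (0.46, adjusted p = 0.0988).

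Motif content was compared outside promoters, in the central 150 bp. A RUNX match was present in 46.6% of 4829 members (Wilson interval 45.2 to 48.0), in 40.9% (39.9 to 41.8) of the 10374 DHSs of all 9 libraries with an IgG peak, and in 42.2% of all consensus DHSs outside promoters. GATA matches were present in 9.94% of members (9.13 to 10.8), 5.25% (4.84 to 5.70) and 9.17%. AP-1 and C/EBP matches were less frequent in members, with AP-1 in 5.28% of members (4.69 to 5.95), 9.45% (8.90 to 10.02) and 8.51%, and C/EBP in 4.78% (4.22 to 5.42), 7.01% (6.53 to 7.52) and 8.52%. In the same order, an E-box was present in 14.3%, 12.6% and 12%, RBPJ in 3.93%, 3.13% and 3.53%, and PU.1 in 23.3%, 26.9% and 25.3%. ETS was present in 4.87%, 6.59% and 3.00%, and CTCF in 4.27%, 4.94% and 2.21%, so members lay between the other classes for both. MYB was present in 8.93%, 8.24% and 9.24%, and TCF1 in 2.24%, 1.42% and 3.07%.

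The RUNX and GATA shares of members were above those of DHSs with an IgG peak in each bin of rank. In bin 4 of 5, RUNX matches were present in 65.2% of members (242 of 371, interval 60.2 to 69.9) and in 47.3% of DHSs with an IgG peak (950 of 2010, 45.1 to 49.4). GATA matches were present in 17.8% (66 of 371, 14.2 to 22.0) and 5.52% (111 of 2010, 4.61 to 6.61) in that bin. In the highest bin, with 80 members outside promoters, RUNX matches were present in 61.3% (50.3 to 71.2) and 46.1% (43.4 to 48.9), and GATA matches in 15% (8.79 to 24.4) and 6.05% (4.86 to 7.51).

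**Figure D4:**
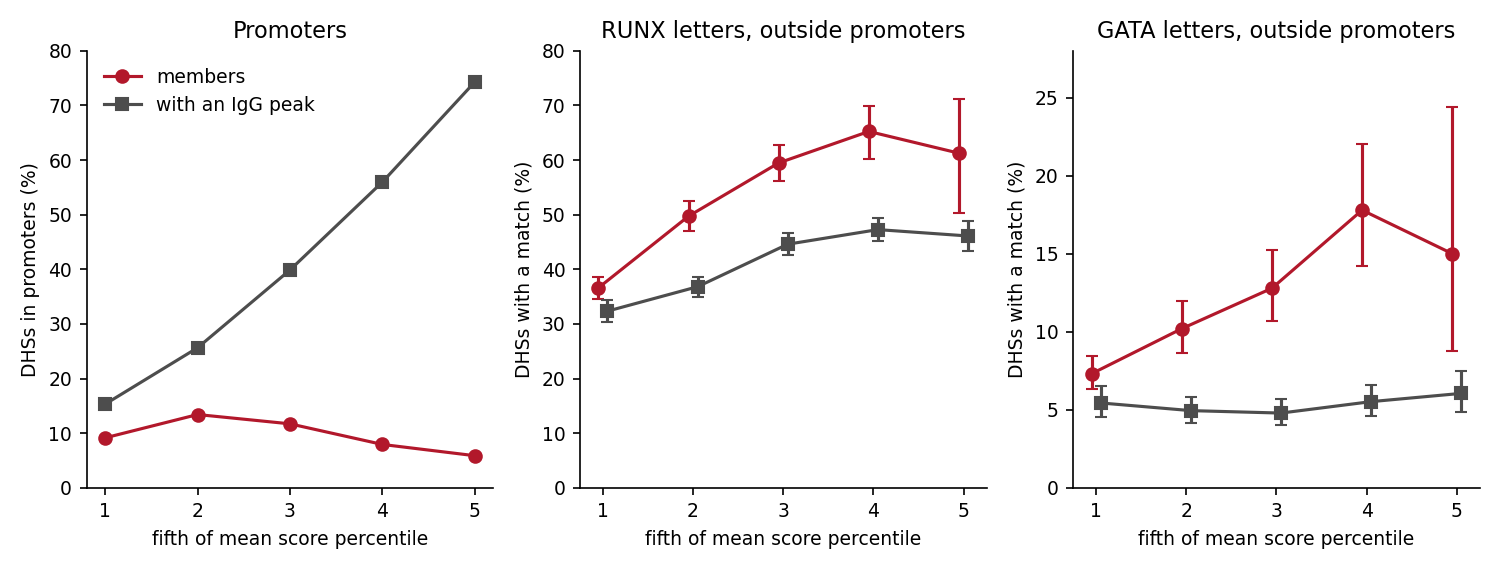
Share of DHSs at promoters (left), and share of DHSs outside promoters with a RUNX match (middle) or a GATA match (right), in percent, by bin of mean score percentile (1 lowest, 5 highest), for members (circles) and DHSs of the same 9 libraries with an IgG peak (squares); bars in the motif panels are 95% Wilson intervals. In bin 4 RUNX matches were present in 65.2% of members and 47.3% of the others.

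Members that changed differed in motifs by direction. A RUNX match was present in 63.5% of the 1153 members outside promoters called higher with Delta1 (60.7 to 66.2), in 42.4% of the 661 called lower (38.6 to 46.2) and in 41.0% of the 3015 not called. The same held for DHSs with an IgG peak, at 59.9% of those higher and 34.0% of those lower, so it is not particular to members. The motif shares by direction were not matched for rank. From the lowest bin of mean percentile to bin 4, the RUNX share of members went from 36.6% to 65.2%. Their share of higher calls went from 11.8% to 40.7%, and the part of rank in the motif differences was not tested. RBPJ, 1 of the 11 motifs, had a match in 5.29% (61 of 1153, 4.14 to 6.74) of members higher with Delta1. It had one in 2.57% (17 of 661, 1.61 to 4.08) of those lower and in 3.71% (3.10 to 4.45) of those not called. The intervals of members higher and not called overlapped. In DHSs with an IgG peak RBPJ matches were present in 3.55% of those higher and 3.26% of those lower. Whether the RBPJ shares are particular to members was not tested. E-box (18.6% and 13.6%), GATA (13.8% and 10.4%) and PU.1 matches were also more frequent in members higher than in those lower. ETS, C/EBP and CTCF matches were less frequent in members higher than in those lower. Members lower in DN2b than in DN1 held a PU.1 match in 42.8% (127 of 297, 37.3 to 48.4), against 21.8% of the 413 higher in DN2b, and a GATA match in 18.5% (14.5 to 23.3) against 10.9%. ETS matches went the other way, with 4.71% (2.83 to 7.76) of those lower and 10.9% (8.24 to 14.3) of those higher. The DN2b shares were not computed for DHSs with an IgG peak, so whether they are particular to members was not tested.

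Across libraries, the members' median percentile was 48.6, 50.3 and 56.4 in LSK, 70.7 and 58.6 in DN1, 60.9 and 54.4 in DN2a, and 52.6 and 73.0 in DN2b. Group means of these medians were 51.8 ± 4.11 (SD, n = 3) in LSK, 64.6 ± 8.57 in DN1, 57.7 ± 4.59 in DN2a and 62.8 ± 14.4 in DN2b (n = 2 each). The highest values were those of the 2 longest lists, and the order of the others followed list length with 2 exceptions, DN2b replicate 1 and DN1 replicate 2. Within the common set they were 22.4 ± 0.618 in LSK, 23.9 ± 0.885 in DN1, 26.1 ± 1.05 in DN2a and 26.1 ± 0.357 in DN2b. Over the members, Spearman's rho between 2 libraries was 0.744 to 0.891 within a group (6 pairs) and 0.405 to 0.837 between groups (30 pairs), a description over DHSs that share each library's depth.

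**Figure D5:**
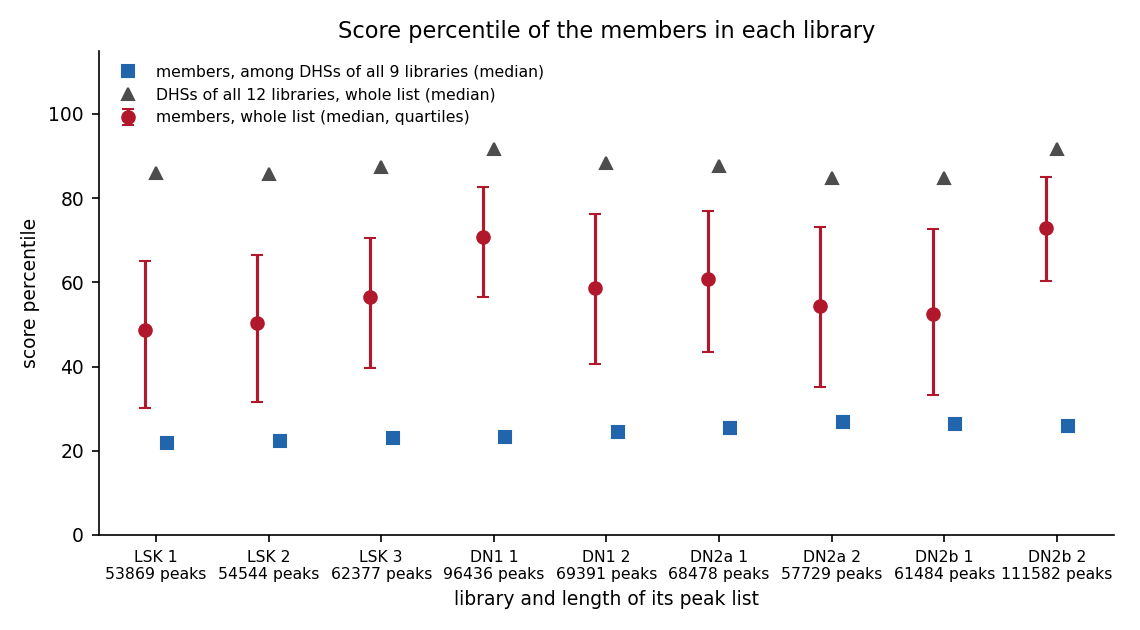
Score percentile (vertical axis) in each of the 9 libraries (horizontal axis, with the length of the peak list): the members' whole-list median (circles, bars are quartiles), their median among the DHSs of all 9 libraries (squares) and the whole-list median of DHSs present in all 12 libraries (triangles). The members' whole-list medians lay between 48.6 and 73.0.

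When every library was cut to the length of the shortest list, with the highest scoring peaks kept, 76899 consensus DHSs remained, 15113 were present in all 9 libraries and 1491 met the rule. That is 9.87% of the DHSs in all 9 libraries, against 21.7% with the lists as deposited. The promoter share was 12.6% (11 to 14.4) at equal lengths, against 64.8% of the DHSs then present in all 12 libraries. Of the members as deposited, 1383 (25.6%) remained, which is 92.8% of the members at equal lengths, and 403 had a top-ranking peak in none of the 9 libraries. The median percentiles of the equal-length members were 51.7 ± 0.558 in LSK, 59.0 ± 0.374 in DN1, 62.4 ± 1.69 in DN2a and 59.1 ± 0.473 in DN2b. Over all consensus DHSs at equal lengths the promoter share was 21.4%.

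The rule's threshold left many DHSs just outside. A further 3030 DHSs had a peak in all 9 libraries and in 1 IgG library, and 4049 had one in 8 of the 9 and in no IgG library, most often missing in DN2a replicate 2 (1015) or LSK replicate 1 (827). The highest of those with 1 IgG library lay near Nxpe3, Runx1 and Panx1. Each had its IgG peak in IgG replicate 3 alone, at percentiles of 34.9, 29.5 and 50.9. The one 327 kb upstream of Runx1, which encodes a factor required for blood stem cells, had 30.2, 44.6 and 29.5 in LSK and 96.9 to 99.4 with Delta1. The highest of those missing 1 library lay near Chsy1, P2rx4 and Inpp5d, all without a peak in LSK replicate 1 and with median percentiles of 97.4, 96.3 and 95.7 in the other 8.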

How the data were processed

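DNase-seq measures accessible chromatin by sequencing fragments cut by DNase I. Per the labels and the methods of the study, the authors mapped read pairs to the mm10 build (BWA 0.7.12) and ran hotspot2 on each library, with the false discovery rate set to 0.05, to give 150 bp peaks (SAMtools 1.2 is also in the submitters' processing notes). The deposited lists give for each peak a whole-number score of 1 to 150, whose meaning is not given in the sources used here, so it served here only for ordering the peaks of 1 library. Tied scores shared their mean rank. Read depth is unknown. Gene starts were those of protein-coding genes in GENCODE mouse release 21, and sequences were read from GRCm38. Intervals are 95% Wilson intervals over DHSs and cover counting error only.

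The members, gene lists, motifs and tests were chosen with earlier results of these data known. Groups followed the labels, which name no batch. Common-set ranks were converted to normal scores, fitted with limma 3.58.1 (R 4.3.3) on the 9 LSK, DN1, DN2a and DN2b libraries with 1 mean per group and no covariate, and adjusted by Benjamini-Hochberg over 24839 DHSs at a threshold of 0.05. The script was tested on simulated data. Named members were the 10 promoter members and 10 others of highest median percentile, up to 4 per gene list, the 5 genes nearest to the most members, the 5 lowest adjusted p-values per direction and comparison, and 3 near misses of each kind. An exact permutation test of the 20 highest members had been planned and is not reported, since their choice favoured its outcome. Alternatives were equal list lengths, the upper 50% of each list, other merging, promoter windows and gene starts, other library requirements, other rank scales and leaving out each library. Python 3.11.15, pandas 2.3.3, scipy 1.17.1 and pysam 0.24.0 were used. Peaks on other chromosomes were left out.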

Additional observations from a re-analysis of the deposited data

Results flagged for a closer look

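Outside the chromosomes analysed here, 91 consensus DHSs were found, of which 40 had an IgG peak. On chromosome Y, 1 DHS had a peak in each of the 9 fresh or Delta1-cultured libraries, without any IgG peak. It was singled out as a signal in data outside the main measurement and was not analysed further.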

How the results depend on the processing

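The number of members was 1491 at equal list lengths, 3252 with the upper 50% of each list and 8432 when a peak in 1 IgG library was allowed, and 5422 to 6864 when 1 library was left out. The promoter share of members was 12.6% at equal lengths, 24.0% with the upper 50% of each list, 9.69% with peaks within 150 bp merged, 11.6% with a peak in at least 2 libraries of each group, 13.8% with at most 1 IgG library, 7.24% and 15.4% with windows of 500 bp and 2.5 kb, 13.9% with every protein-coding transcript start, and 10.1% to 12.8% without 1 library. The median percentile was 22.4 in LSK, 23.9 in DN1, 26.1 in DN2a and 26.1 in DN2b within the common set, and 62.4 in DN2a at equal lengths.

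At equal lengths limma called 486 members higher (32.6%, against 11.7% of all DHSs then tested) and 150 lower (10.1% against 10.2%) with Delta1, 274 higher (18.4% against 6.62%) and 107 lower (7.18% against 5.28%) in DN1 than in LSK, and 150 higher (10.1% against 2.97%) and 78 lower (5.23% against 3.82%) in DN2b than in DN1. Only 1491 members and 15113 DHSs were then tested, so the counts fell while the shares of members called higher were above those with the lists as deposited. With whole-list percentiles, 166 were lower with Delta1 (3.07% against 2.48%), 57 were lower in DN1, and 92 were higher and 97 lower in DN2b, and the cause was not tested. Untransformed percentiles and the mean score of a DHS's peaks kept all 6 counts within 1.5 times. With untransformed percentiles the shares of members called lower were no longer above those of all DHSs. They were 10.7% against 12.1% with Delta1, 6.37% against 6.40% in DN1 and 4.61% against 5.12% in DN2b. The shares called higher stayed above, at 21.4% against 12.5%, 12.8% against 7.90% and 7.53% against 3.62% in the same order. Without 1 library, counts ranged from 1128 to 1238 and 554 to 706 (higher and lower with Delta1), 350 to 810 and 201 to 487 (DN1) and 213 to 512 and 152 to 331 (DN2b). The alternatives for the comparison of DN1 with LSK, and those on untransformed percentiles and mean scores for DN2b with DN1, were chosen after seeing the data. A lone remaining library is assumed to vary like the others. No paired analysis was possible because the labels give no replicate numbers (those printed follow accession order). Depth is unknown, so absence of a peak in the short IgG lists does not bound accessibility.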
